A study of Mus musculus with 4 samples.

Results

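Lymphatic endothelium of the aged mouse lung was examined in 4 single-cell RNA libraries, 2 labelled BPTES and 2 labelled DMSO. A barcode counted as a member if it held at least 1 UMI (1 counted RNA molecule) of at least 3 of the 5 markers Prox1, Mmrn1, Ccl21a, Reln and Flt4, of which Prox1 or Mmrn1 had to be 1. It also had to hold at most 1 UMI of the capillary gene Gpihbp1 and 0 UMIs of Slc6a2, Gja5 and Ptprc. Of 68675 barcodes that passed the depth filters, 1024 (1.49%) were members, with 324 and 211 in BPTES libraries 1 and 2 and 244 and 245 in DMSO libraries 1 and 2. The levels of these 9 gate genes chose the members and are not read as results.

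All mice were male C57BL/6 animals that were 19 months old when a treatment of 1 month began, with BPTES or with DMSO. BPTES is a small-molecule inhibitor that acts on glutamine metabolism, and DMSO is a solvent that served as the control. Lungs were digested with Liberase and the cells stained for CD45, a surface marker of leukocytes. The mixture loaded for 10x GEM-X 3' v4 capture held 20000 cells without CD45 and 9000 with it. The labels do not say whether the libraries of a group came from separate mice, so p-values measure only the spread between these libraries, which may be technical.

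Lymphatic endothelial cells line the vessels that return fluid, lipid and leukocytes from tissue to lymph nodes and blood. The transcription factor PROX1 maintains their identity, and their growth depends on VEGF-C acting through the receptor VEGFR3, which Flt4 encodes. They secrete the chemokine CCL21, which draws dendritic cells and T cells into the vessel.

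All 5 markers were present in 300, 194, 218 and 221 members of BPTES 1, BPTES 2, DMSO 1 and DMSO 2, and 3, 5, 4 and 4 members stood at the limit of 3. The 16, 5, 18 and 15 barcodes just outside it, with 2 markers, had 298 to 1206 CPM (counts scaled to a common library total) summed over 17 lymphatic identity genes that the rule did not use, where members with 3 markers had 6714, 7152, 2879 and 3473 CPM in that order of libraries and members with 4 or 5 markers had 7104 to 8190.5 CPM. The limit on Gpihbp1 left out 119, 94, 108 and 113 barcodes that had passed the markers. Marker lists of other vessels summed to 653 to 848 CPM in members for capillary, 42.3 to 55.3 CPM for venous and 37.4 to 64.5 CPM for arterial endothelium, against 1451 to 1748, 209 to 264 and 135 to 149 CPM in all other kept barcodes. Those other barcodes include leukocytes, fibroblasts and epithelium. The sums include the gate genes Gpihbp1, Slc6a2 and Gja5, which the member rule limits, so the lower sums in members are partly set by that rule. Among list genes outside the gate, Ackr1 of veins and Dkk2 of arteries were at 0 in members, but at most 0.752 and 3.24 CPM in the others. Cpe of veins, Bmx of arteries and Plvap and Ednrb of capillaries were higher in members in all 4 libraries, with Plvap at 528 to 548 CPM against 217 to 307 CPM. Vwf, Amigo2, Sox17, Hey1, Car4, Aplnr, Kit and Sema3c were lower in all 4, and Selp was lower in all but DMSO 2.

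Member barcodes had a median of 10849 and 11962 UMIs in BPTES and 10504 and 10205 in DMSO, and summed to between 2644704 and 3652452 UMIs per library. Pairs of libraries shared 65 to 104 barcode sequences among kept barcodes. Markers of alveolar type 2 cells, which make surfactant, summed to 454 and 7418 CPM in BPTES and 120.4 and 4097 CPM in DMSO members, so that both replicate 2 libraries were high, and 3 members held 96.1% and 93.7% of these UMIs in those libraries, while 3 members held 2.47% and 5.81% in BPTES 1 and DMSO 1. Genes of aerocytes, the large capillary cells of the gas-exchange surface, reached 10 or more UMIs (summed over Car4, Kitl, Tbx3, Apln, Fibin and Prx) in 2 and 1 BPTES members and in 4 and 4 DMSO members. Members with such aerocyte RNA, or with over 100 UMIs of 1 of 6 marker lists of other cells, are called mixed barcodes here. There were 21, and leaving them out left 1003 members.

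Promoters are shown for 4 genes of the interferon and chaperone groups described further on. Both motifs were searched on both strands of the 250 bases before each gene's start in RefSeq's GRCm38.p6 promoters. The interferon-stimulated response element was taken as GAAA, any 2 bases and GAAA, and the heat shock element as GAA, any 2 bases, TTC, any 2 bases and GAA. Irgm1, Stat2 and Isg15 had the lowest unadjusted p among 11 interferon genes with a match and with both BPTES libraries below both DMSO libraries. Hspe1 had the lower of 2 chaperone genes with a match and both BPTES libraries above, so all were chosen after their values were seen. Capitals mark the matches, and overlapping matches run together.
Irgm1 (chr11:48871421-48871670, minus strand): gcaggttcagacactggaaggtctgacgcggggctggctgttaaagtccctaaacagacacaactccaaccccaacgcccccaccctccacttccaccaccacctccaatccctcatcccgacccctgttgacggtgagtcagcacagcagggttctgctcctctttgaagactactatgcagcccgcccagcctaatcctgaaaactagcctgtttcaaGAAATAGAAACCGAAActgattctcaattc
Stat2 (chr10:128270248-128270497, plus strand): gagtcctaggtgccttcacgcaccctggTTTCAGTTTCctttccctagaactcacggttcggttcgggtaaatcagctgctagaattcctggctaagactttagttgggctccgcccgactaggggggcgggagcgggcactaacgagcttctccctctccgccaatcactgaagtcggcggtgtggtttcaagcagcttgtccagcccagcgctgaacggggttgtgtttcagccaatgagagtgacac
Isg15 (chr4:156200819-156201068, minus strand): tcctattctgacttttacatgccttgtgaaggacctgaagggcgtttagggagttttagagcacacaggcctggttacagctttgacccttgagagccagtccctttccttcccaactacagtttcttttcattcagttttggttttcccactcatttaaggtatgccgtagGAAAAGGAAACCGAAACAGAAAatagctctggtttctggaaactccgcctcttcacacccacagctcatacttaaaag
Hspe1 (chr1:55087898-55088147, plus strand): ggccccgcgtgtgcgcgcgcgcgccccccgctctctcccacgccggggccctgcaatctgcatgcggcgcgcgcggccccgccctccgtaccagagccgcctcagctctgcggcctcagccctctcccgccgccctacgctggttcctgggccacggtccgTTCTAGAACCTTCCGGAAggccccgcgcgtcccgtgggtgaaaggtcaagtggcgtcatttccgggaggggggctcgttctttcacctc

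The interferon element was present in 10 of 26 type I interferon genes with a promoter in the table, in 10 of 16 interferon-gamma genes, in 3 of 18 antigen presentation genes and in 0 of 11 chaperone genes, and in 3.46% of all 27025 promoters. The heat shock element was present in 2 of 11 chaperone genes, Hspd1 and Hspe1, in 1 of 26 type I interferon genes, Bst2, and in 0.514% of all promoters. Matches began 30 and 24 bases before the start of Irgm1, 78, 72 and 66 bases before that of Isg15, 222 bases before that of Stat2 and 89 and 84 bases before that of Hspe1. A match describes these letters and is neither a binding site nor a cause.

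A broad group of genes set the class apart from blood endothelium, pooled here from capillary barcodes (Pecam1 and Cdh5 present, at least 2 UMIs of Gpihbp1) and venous barcodes (Pecam1, Cdh5 and Slc6a2 present, at most 1 UMI of Gpihbp1). Both classes had to hold 0 UMIs of Prox1, Mmrn1, Ptprc, Gja5 and Epcam, and capillary barcodes also 0 of Slc6a2, which leaves out barcodes that hold RNA of Prox1 or Mmrn1. The pool held 14188 capillary and 318 venous barcodes, so its levels lie close to those of capillary endothelium. Aerocytes were kept as a separate class. Of 2089 genes with at least 100 CPM in members, 1207 were higher than in vascular endothelium in all 4 libraries, and 136 of those were over 10 times as high. The 15 with the highest ratio are described with no test, because members were chosen by RNA, and these levels are plain CPM. Tbx1, a transcription factor needed for lymphatic growth, had 249.5 ± 19.6 CPM in members (mean ± SD, n = 4) and 0.10 CPM in vascular endothelium. Stab2, a scavenger receptor for hyaluronan, had 664 ± 142 CPM and 0.383 CPM. Kcnn3, a calcium-activated potassium channel, had 547 ± 32.0 CPM and 0.354 CPM. The part of that choice of barcodes in these low vascular levels was not tested.

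Secreted factors belonged to the same group. Sema3a, a guidance cue that shapes lymphatic valves, had 548 ± 114 CPM in members and 1.04 CPM in vascular endothelium, and Pcsk6, a proprotein convertase, had 441 ± 43.7 CPM and 0.707 CPM. Nts, which encodes the peptide neurotensin, averaged 157 CPM but ranged from 24.9 to 451 CPM, with DMSO 1 above the other 3 libraries. Fgf12 and Fgf13, intracellular relatives of fibroblast growth factors, had 194 and 361 CPM, and Thy1, a surface glycoprotein, had 332 ± 14.4 CPM. The others were Pld5, Slc45a3, Gm525, Apba2, Npas3 and Gm21541. Gm21541 belongs to a cluster of near-identical Ccl21 genes, so its reads may be split between copies and its level is uncertain.

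**Figure D1:**
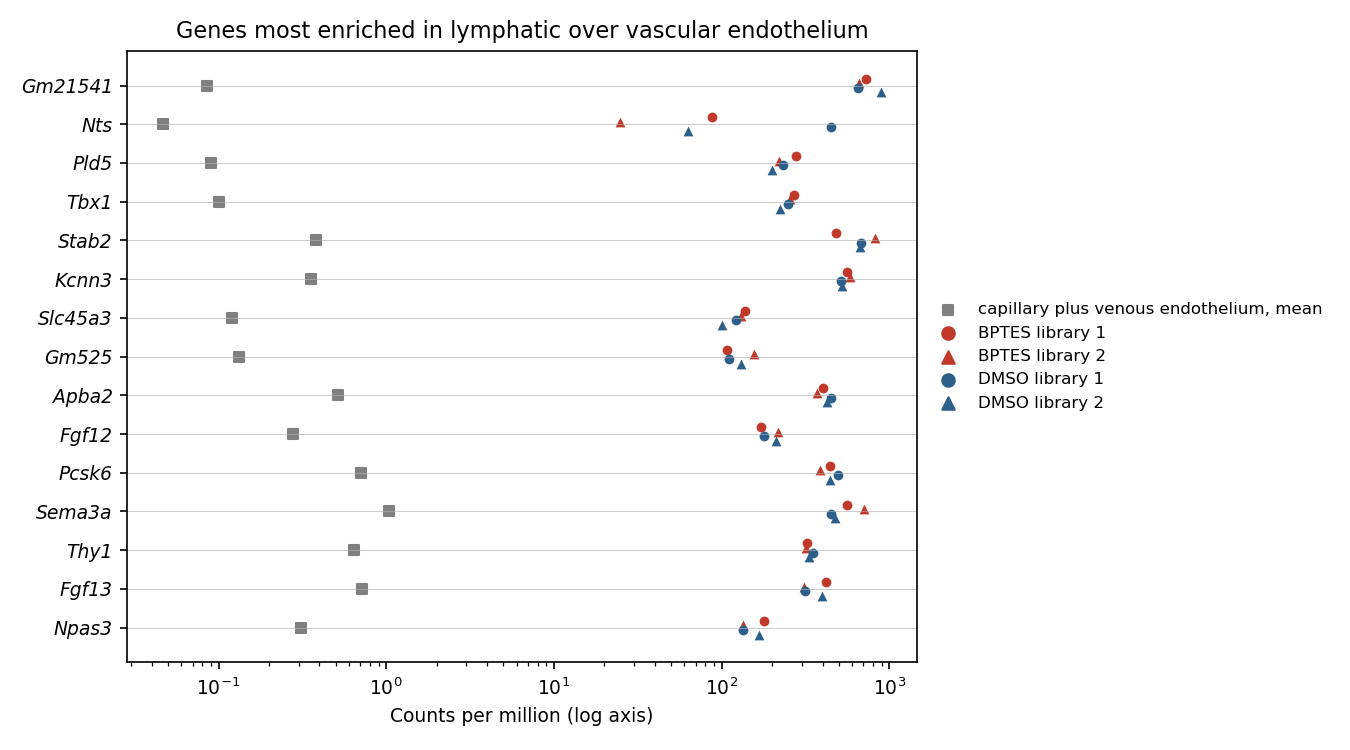
The 15 genes with the highest ratio of lymphatic to vascular endothelium, in CPM on a log axis. Red and blue points are members of the BPTES and DMSO libraries, and grey squares are the mean of capillary plus venous endothelium. For Tbx1 the 4 libraries lie between 223 and 269 CPM with a vascular mean of 0.10 CPM, while Nts spreads from 24.9 to 451 CPM.

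All 17 lymphatic identity genes had at least 10 CPM, and 12 were over 10 times as high as in vascular endothelium. Pdpn, the mucin-like protein podoplanin, had 270.1 ± 26.4 CPM in members and 2.98 CPM in vascular endothelium. Maf, a transcription factor of lymphatic maturation, had 1062 ± 159 CPM and 4.45 CPM. Nrp2, a co-receptor for VEGF-C, had 1424 ± 63.9 CPM and 49.8 CPM, and Nr2f2, a transcription factor of veins and lymphatics, 651 ± 52.3 CPM and 23.8 CPM. In venous barcodes alone, Nrp2 had 344 CPM and Nr2f2 250 CPM. Fgl2, also among the 12, had 172 CPM there against 443 CPM in members. The remaining genes of the 12 were over 10 times as high in members as in venous barcodes too. Sema3d, a guidance cue, and Fxyd6, a regulator of the sodium pump, had 758 and 628 CPM. These levels, which the rule did not use, match the label of the class.

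Lyve1, Sox18 and Hhex did not separate the classes. Lyve1, a hyaluronan receptor, had 833 ± 146 CPM in members and 725 CPM in vascular endothelium. After each barcode was thinned to 3000 UMIs, Lyve1 was detected in 44.6% and 50.3% of members in BPTES and DMSO and in 63.0% and 62.8% of capillary barcodes, while Pdpn was detected in 47.5% and 50.8% of members and 0.427% and 0.420% of capillary barcodes. Without thinning, the shares in members were 57.6% and 61.3% for Lyve1 and 75.9% and 76.1% for Pdpn. The transcription factor genes Sox18 and Hhex had 204 and 61.5 CPM in members and 241 and 79.5 CPM in vascular endothelium.

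Of 19 genes of valves and collecting vessels, 14 had at least 10 CPM and 5 were over 10 times as high as in vascular endothelium. Itga9, an integrin of valve leaflets, had 624 ± 45.1 CPM in members, and Gja1, a gap-junction protein, 509 ± 30.4 CPM, against 37.3 and 7.93 CPM. Celsr1, a planar polarity protein of valves, had 51.8 ± 13.1 CPM against 0.302 CPM. Foxc2, the transcription factor of valve formation, had 17.4 ± 3.50 CPM and a UMI in 5.65% and 4.42% of thinned members, against 0.0895% and 0.0580% of capillary barcodes. In venous barcodes alone, Itga9 had 141 CPM and Foxc2 2.25 CPM, so members were under 10 times as high. The list gene Foxc1 had 70.6 CPM there, against 26.4 CPM in members. At least 2 of Cldn11, Foxc2, Gja4, Gata2 and Itga9 were detected in 15.4% and 14.8% of thinned members but also in 20.6% and 25.4% of capillary barcodes, and Gata2 and Gja4 were lower in members (32.7 and 24.7 CPM) than in vascular endothelium (258 and 180.0 CPM). A cut at 2 of these 5 genes thus did not set members apart from capillary barcodes. Exactly 1 of the 5 was detected in 65.3% and 64.4% of thinned members and in 46.1% and 45.4% of capillary barcodes.

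Of 22 growth factor signalling genes, 16 had at least 10 CPM, of which 2 were over 10 times as high as in vascular endothelium, 4 were under 0.1 of its level and 10 lay between. Kdr, which encodes VEGFR2, had 772 ± 12.4 CPM in members and 436 CPM in vascular endothelium, whereas its relative Flt1, which encodes VEGFR1, had 19.4 CPM against 1419 CPM. In venous barcodes alone Kdr had 559 CPM, and in aerocytes 2620 CPM, above members. Angpt2, a ligand of the receptor TIE2, had 226 ± 31 CPM against 22.6 CPM, and Tek, which encodes TIE2, 166 ± 23.6 CPM against 1053 CPM. Calcrl and Ramp2, which together form the adrenomedullin receptor, had 574 and 347 CPM against 4542 and 1598 CPM. Nrp1, Flt1, Dach1, Ly6c1 and Gm30382 were under 10% of their level in both capillary and venous barcodes, Acvrl1, Vegfa and Cxcl12 were so for capillary barcodes alone among these 2 classes, and Selp and Ackr3 for venous barcodes alone.

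Of 35 leukocyte traffic genes, 23 had at least 10 CPM and 6 were over 10 times as high as in vascular endothelium. Mrc1, a mannose receptor that binds lymphocytes, had 677 ± 53.1 CPM against 2.43 CPM, and Stab1, a scavenger receptor, 540.3 ± 39.2 CPM against 69.7 CPM. Il7, a survival factor of lymphocytes, had 102 ± 21.0 CPM against 3.87 CPM, and Il33, an alarmin, 77.2 ± 20.9 CPM against 3.88 CPM. In venous barcodes alone Il33 had 45.5 CPM, and in epithelial barcodes 300 CPM. Spns2, an exporter of sphingosine 1-phosphate, and S1pr1, a receptor for it, had 64.5 and 323 CPM against 124 and 739.8 CPM. Among atypical chemokine receptors, Ackr2 had 93.4 ± 13.0 CPM and Ackr4 0.324 CPM.

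Glul, which makes glutamine, had 56.5 CPM in members and 123 CPM in capillary barcodes. Of the glutamine transporters, Slc38a2 had 609.5 CPM in members and 369.7 CPM in capillary barcodes, and Slc1a5 had 8.12 CPM, under 10% of its level in fibroblast and epithelial barcodes.

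The comparison of BPTES with DMSO asked which RNAs of these cells changed with treatment. Counts were summed over members per library and tested over all genes with edgeR's quasi-likelihood test. From here on, levels of single genes per library are CPM scaled by TMM, which adjusts for library composition. Means of a class and sums over marker lists are plain CPM. At an adjusted p under 0.05, 0 of 11338 genes (0%) were called. At an unadjusted p under 0.05 there were 1106 (9.75%), of which 651 (5.74%) were lower and 455 (4.01%) higher in BPTES, and the smallest adjusted p was 0.0671. DESeq2 called 51 of 11118 genes (0.459%), 4 of them higher. Without the mixed barcodes edgeR called 0 of 11024 genes (0%), with 1174 (10.6%) at an unadjusted p under 0.05. With all members, edgeR called 132 genes without BPTES replicate 1, 218 without BPTES replicate 2, 4 without DMSO replicate 1 and 0 without DMSO replicate 2, each fit resting on a lone library in 1 group that is assumed to vary like the other group.

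Members made up 3.05% and 2.03% of Ptprc-negative barcodes in BPTES and 2.50% and 1.94% in DMSO, or 2.54 ± 0.722% against 2.22 ± 0.398% (mean ± SD, n = 2). The groups overlapped. A two-sided exact permutation test gave p = 0.667, where the smallest p that 2 against 2 libraries allow is 0.333. Without BPTES replicate 1 the difference was -0.187 percentage points and had changed sign.

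Many genes of lowest unadjusted p were genes that aerocytes express, and the genes of this and the next paragraphs were singled out after their values were seen. Dach1, a transcription factor, had 5.49 and 6.96 CPM in BPTES against 47.4 and 86.0 CPM in DMSO. Kitl, the ligand of the receptor KIT, had 17.6 and 16.6 CPM against 72.4 and 134 CPM, and Prickle2, a planar polarity gene, 43.1 and 27.1 CPM against 157 and 229.7 CPM. Both BPTES libraries were below both DMSO libraries for all 3. Mean levels in aerocyte barcodes (at least 3 UMIs each of Ednrb and Car4) were 1677, 3380.4 and 5771 CPM. Of the 651 genes lower at an unadjusted p under 0.05, 103 (15.8%) were over 10 times as high in aerocytes as in members, against 1.54% of all genes tested and 0.440% of the 455 higher genes.

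When mixed barcodes were left out, the log2 fold change of Prickle2 went from -2.44 to -0.73, that of Dach1 from -3.43 to -1.46 and that of Tmem100, a membrane protein downstream of BMP signalling, from -1.88 to -0.23. Kitl, Car4 and Prx are among the 6 genes whose UMIs chose these barcodes, so their smaller differences without them are set by that choice. The choice can also act on other genes that the same barcodes hold. Ednrb, which encodes endothelin receptor B, had 72.5 and 63.0 CPM against 157 and 166 CPM, a log2 fold change of -1.25 that became -0.83 and an adjusted p of 0.0671 that became 0.0649 with edgeR. With all members, DESeq2 gave adjusted p values of 7.61e-07 for Ednrb, 3.32e-12 for Dach1 and 7.40e-17 for Prickle2, where edgeR gave 0.0671 and 0.0671 for the last 2. Members with at least 10 UMIs over the 6 aerocyte genes held 39.5% and 16.8% of the UMIs of those genes in BPTES (from 2 and 1 members) and 76.6% and 91.1% in DMSO (from 4 and 4 members).

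**Figure D2:**
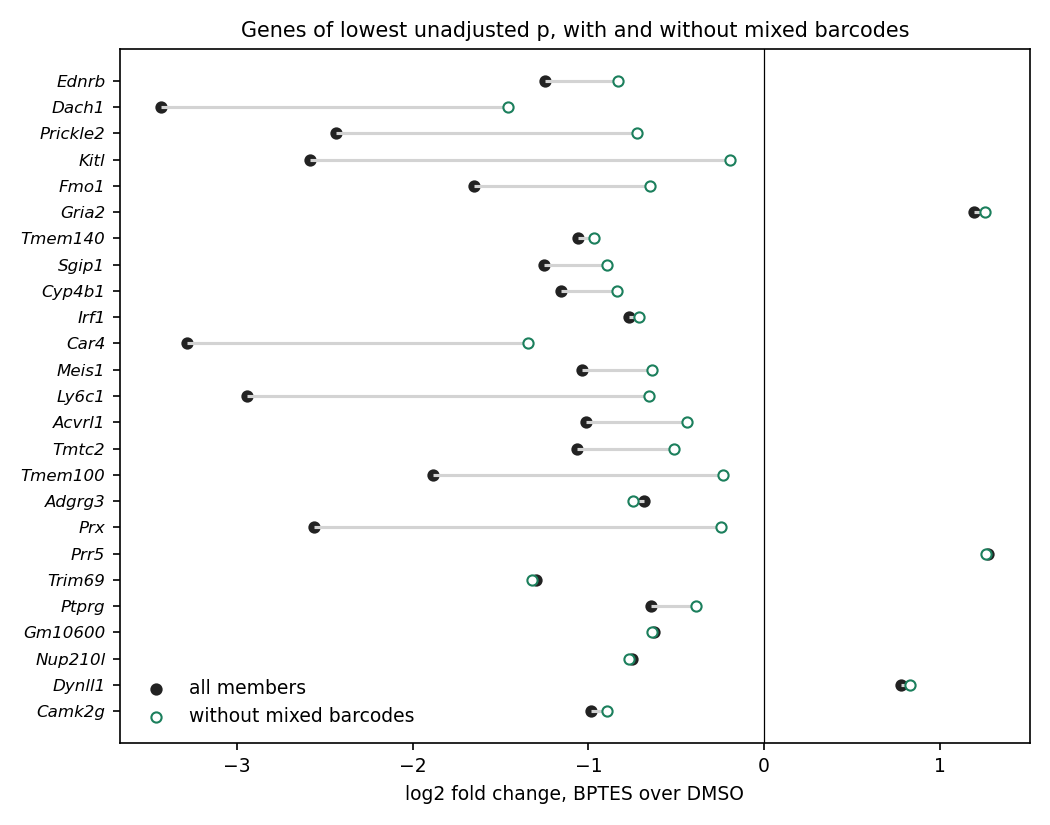
The log2 fold change of BPTES over DMSO for 25 genes of low unadjusted p and at least 10 CPM, 1 line per gene. Gm30382, Fibin, Egflam, Pcdh1 and Hopx also had low unadjusted p but are not drawn. Without the mixed barcodes their counts were too low to be tested. Filled points are from all members and open points from members without the 21 mixed barcodes. Prickle2 moves from -2.44 to -0.73, while Irf1 lies at -0.77 and -0.71 and Gria2 at 1.19 and 1.26; Kitl, Car4 and Prx are genes that chose the mixed barcodes, so their moves are set by that choice.

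Another set of these genes moved little without the mixed barcodes. With edgeR none passed adjustment, either with all members or without the mixed barcodes. Irf1, Gria2, Dynll1, Tmem132d and Adgrg3 were called under some of the alternative settings described at the end. Irf1 (chromosome 11, 53770014 to 53778374 in GRCm38.p6), a transcription factor of the interferon response, had 212 and 186 CPM in BPTES against 325 and 352 CPM in DMSO. Both BPTES libraries were below both DMSO libraries, with a log2 fold change of -0.77 ± 0.11 (SE) and an adjusted p of 0.124 with edgeR, and DESeq2 gave 0.000419. Irf1 was also lower in both BPTES libraries in capillary endothelium (403 and 360 against 519 and 465 CPM). The same held in venous endothelium (328 and 352 against 748 and 534 CPM). Gria2 (chromosome 3, 80681450 to 80804227 in GRCm38.p6), which encodes a subunit of AMPA glutamate receptors, had 53.8 and 58.4 CPM against 23.9 and 25.0 CPM. Both BPTES libraries were above both DMSO libraries, with a log2 fold change of 1.19 ± 0.16 and an adjusted p of 0.106 with edgeR and 0.0331 with DESeq2. Gria2 had 39.9 CPM in members and at most 0.545 CPM in the other classes. Dynll1, a dynein light chain, had 349 and 445 CPM against 229.7 and 232 CPM, and Tmem132d, a membrane protein, 60.2 and 58.4 CPM against 32.0 and 22.7 CPM, both also higher in both BPTES libraries. Their adjusted p values were 0.138 and 0.138 with edgeR and 0.000684 and 0.0693 with DESeq2. Dynll1 was also higher in both BPTES libraries in capillary endothelium (414 and 494 against 281 and 315 CPM). In venous endothelium it was likewise higher (342 and 407 against 228 and 239 CPM). Tmem132d was at 244 CPM in epithelial barcodes, and its log2 fold change was 1.11 with all members and 1.25 without the mixed barcodes. Adgrg3, an adhesion receptor, had 81.3 and 87.4 CPM against 134 and 136 CPM and log2 fold changes of -0.68 and -0.75. In capillary and venous endothelium Adgrg3 overlapped.

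Interferon response genes lay below in BPTES at a higher rate than genes in general, although 0 were called. Outside the gate genes, both BPTES libraries were below both DMSO libraries for 21.1% of 11332 genes and above them for 20.9%, and the median log2 fold change was 0.00. Of 36 tested genes of the type I interferon response, 26 (72.2%) were below and 0 above, with a median of -0.44. Of 22 genes of the interferon-gamma GTPases and their regulators, 14 (63.6%) were below and 0 above, with a median of -0.35. Without the mixed barcodes, 24 of 34 and 13 of 22 were below and 0 above, with medians of -0.47 and -0.33, where 22.6% of all genes were below and 19.5% above. With each library left out in turn, the medians stayed between -0.63 and -0.26 and between -0.53 and -0.29. At an unadjusted p under 0.05 there were 11 lower and 0 higher type I genes and 7 lower and 0 higher interferon-gamma genes, beside 5.74% lower and 4.01% higher of all genes. These counts describe the lists and carry no test.

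Sensors and signalling genes are given first. Ddx58, which encodes the RNA sensor RIG-I, had 51.1 and 43.3 CPM in BPTES against 66.5 and 71.6 CPM in DMSO. Stat2, part of the complex that switches on interferon-stimulated genes, had 72.2 and 69.2 CPM against 93.3 and 95.5 CPM, and Nlrc5, an activator of MHC class I genes, 50.3 and 53.0 CPM against 80.1 and 72.8 CPM. All 3 were lower in both BPTES libraries. Ifngr2, a subunit of the interferon-gamma receptor, overlapped, with 41.2 and 40.2 CPM against 34.9 and 40.9 CPM.

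Among effectors, Rtp4, an interferon-induced receptor chaperone, had 12.6 and 9.67 CPM in BPTES against 30.9 and 27.3 CPM in DMSO, a log2 fold change of -1.36 ± 0.23 with an adjusted p of 0.138 with edgeR. Oasl2, of the oligoadenylate synthetase family, had 2.75 and 1.93 CPM against 15.1 and 11.7 CPM, and Isg15, a ubiquitin-like modifier, 51.1 and 47.2 CPM against 105 and 61.4 CPM. Ifi27l2a, an interferon-induced membrane protein, had 50.0 and 40.6 CPM against 122 and 75.8 CPM. In all 4 both BPTES libraries were the lowest. Ifit1 and Ifit2, which bind viral RNA, had 9.07 and 9.28 CPM against 40.1 and 12.9 CPM and 12.9 and 10.4 CPM against 64.7 and 17.4 CPM, so that DMSO 1 stood far above DMSO 2. The GTPase genes Irgm1 and Iigp1 had 56.3 and 51.0 CPM against 80.9 and 82.6 CPM and 159.6 and 159 CPM against 239.6 and 222 CPM, lower in both BPTES libraries, while Igtp overlapped, with 20.3 and 15.5 CPM against 16.2 and 20.8 CPM.

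**Figure D3:**
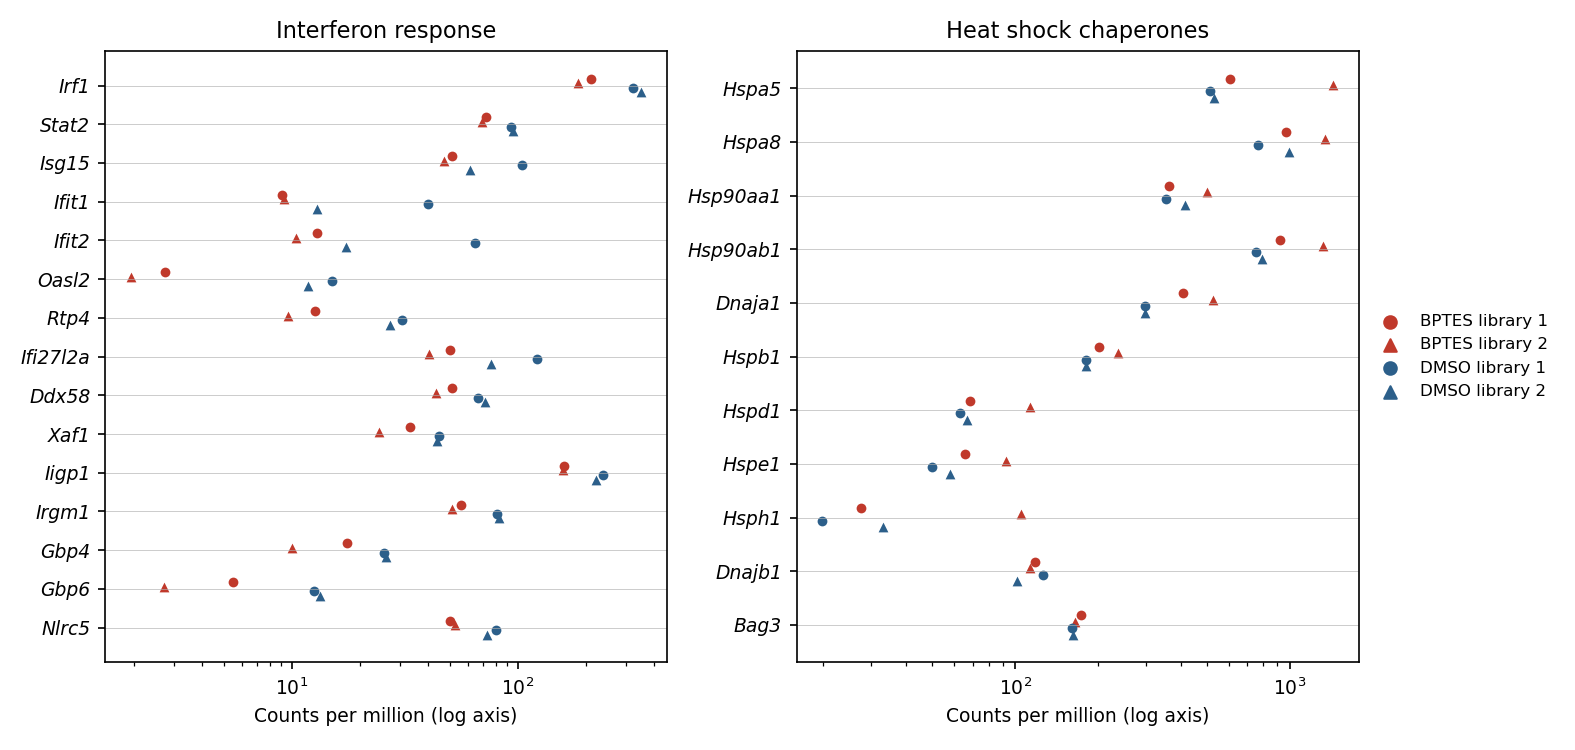
Levels of 15 interferon response genes and 11 heat shock chaperone genes in members, in CPM on a log axis, with 1 point per library. For the 15 interferon genes drawn, chosen after their values were seen, both BPTES points lie left of both DMSO points, such as Irf1 at 212 and 186 against 325 and 352 CPM, and BPTES library 2 lies far to the right for Hspa5, at 1435 CPM.

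Heat shock chaperones lay above in BPTES, again with 0 of 14 called. Both BPTES libraries were above both DMSO libraries for 7 (50%) and below for 0, against 20.9% and 21.1% of all genes. The median log2 fold change was 0.50. With the mixed barcodes left out, 6 were above and 0 below, against 19.5% and 22.6% of all genes, with a median of 0.42. Dnaja1, a co-chaperone of HSP70, had 409.9 and 527 CPM in BPTES against 297 and 297 CPM in DMSO, a log2 fold change of 0.65 ± 0.13 with an adjusted p of 0.203 with edgeR. Hsp90ab1, the constitutive cytosolic HSP90, had 920.3 and 1323 CPM against 756 and 793 CPM, and Hspe1, the mitochondrial co-chaperonin, 65.9 and 92.8 CPM against 50.0 and 58.0 CPM. Hspa5, the chaperone BiP of the endoplasmic reticulum, had 604 and 1435 CPM against 512 and 527 CPM. BPTES 2 was the highest library for all 4, and its members also held the most alveolar type 2 RNA, at 7418 CPM, whose part in these levels was not tested. Without BPTES replicate 2 the median of the list was 0.0973, and without BPTES replicate 1 it was 0.78. Dnajb1, another co-chaperone of HSP70, overlapped, with 118 and 113 CPM against 126 and 102 CPM. Hspa1a and Hspa1b are near-identical copies whose reads may be split between them, and both overlapped.

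Blood endothelium of the same libraries, which shared dissociation and sequencing with the members, gave its own values. For type I interferon genes the median log2 fold change was -0.12 in capillary and -0.14 in venous endothelium, against -0.44 in members. For interferon-gamma genes it was -0.23 and -0.47, and for chaperones 0.65 and 0.62. A test of the difference of the change between members and capillary endothelium called 26 of 15936 genes (0.163%) with edgeR. These held 2 of 43 type I genes, Rtp4 and Oasl2, at adjusted p values of 0.0356 and 0.0293. At an unadjusted p under 0.05, 11 lower and 0 higher type I genes stood beside 4.01% lower and 1.89% higher of all genes. Rtp4 had 108 and 75.7 CPM against 92.3 and 97.7 CPM in capillary endothelium and Oasl2 127 and 88.3 CPM against 114 and 124 CPM, and both overlapped there. Levels in members were far lower in every library. In BPTES 1, BPTES 2, DMSO 1 and DMSO 2 they were 12.6, 9.67, 30.9 and 27.3 CPM for Rtp4. For Oasl2 they were 2.75, 1.93, 15.1 and 11.7 CPM. The part of RNA from blood endothelium in these levels was not tested. In members the log2 fold changes were -1.36 and -2.47, and -1.39 and -2.31 without the mixed barcodes. With those barcodes left out, each had an adjusted p of 0.0550 with edgeR and 0 of 43 were called. At an unadjusted p under 0.05 there were then 17 lower and 0 higher, against 4.27% lower and 2.25% higher of all genes.

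Against venous endothelium edgeR called 0 of 40 type I genes, and 6 lower and 0 higher had an unadjusted p under 0.05, where 4.33% of all genes were lower and 1.36% higher. Of the interferon-gamma genes edgeR called 0 of 25 against capillary and 0 of 24 against venous endothelium, with 4 lower and 0 higher and with 0 lower and 2 higher at an unadjusted p under 0.05. Their median differences were -0.15 and 0.08, so the sign was not the same against both classes. Of 14 chaperones edgeR called 0 against either class, with 2 lower and 1 higher against capillary and 1 lower and 0 higher against venous endothelium at an unadjusted p under 0.05. The shares of all genes at that limit were 4.01% lower and 1.89% higher against capillary endothelium. Against venous endothelium they were 4.33% and 1.36%.

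**Figure D4:**
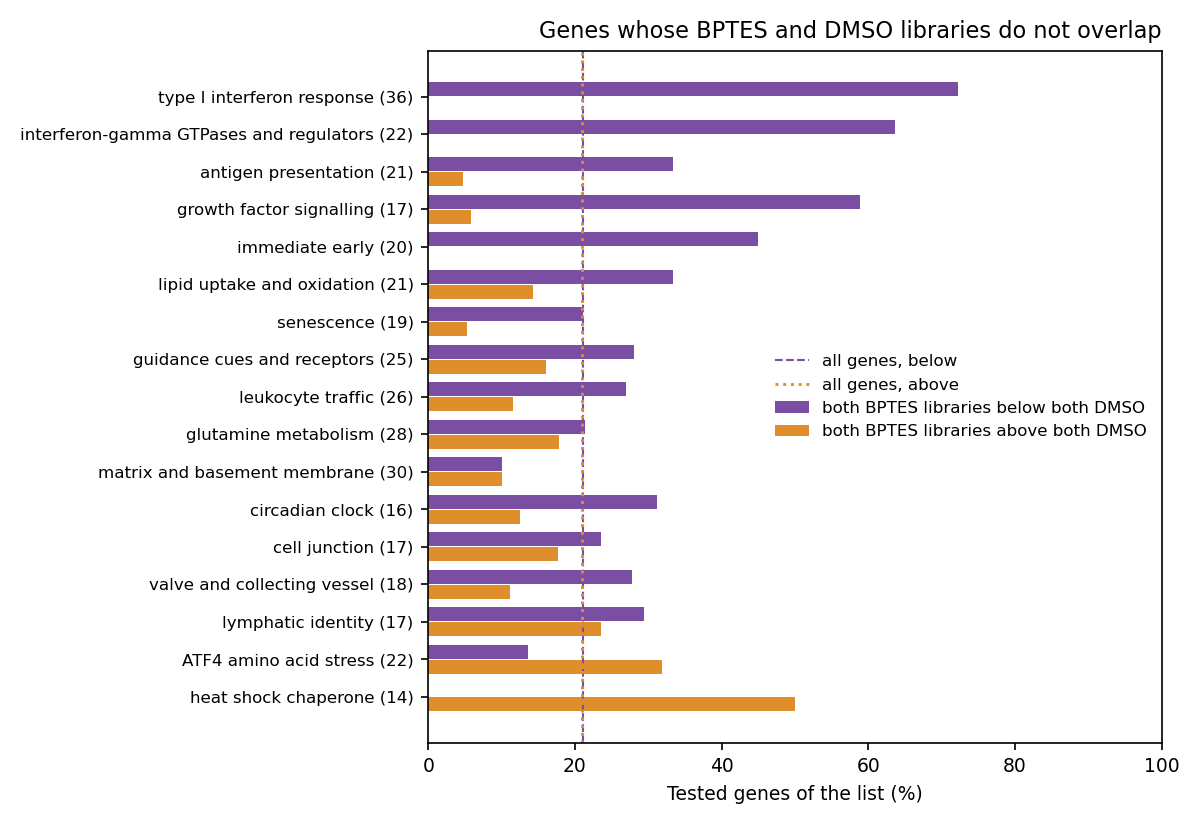
Share of each gene list, in percent of its tested genes (their number in parentheses), whose 2 BPTES libraries lie below (purple) or above (orange) both DMSO libraries in lymphatic endothelium. The dashed and dotted lines are the shares over all genes, 21.1% below and 20.9% above. The type I interferon list reaches 72.2% below with 0 above, and the chaperone list 50% above with 0 below.

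Lymphatic identity genes had no common direction, with 5 of 17 (29.4%) below and 4 (23.5%) above, against 21.1% and 20.9% of all genes. Their median log2 fold change was 0.03. With 1 library left out at a time, this median ran from -0.067 without BPTES 1 to 0.077 without BPTES 2. Maf had 1171 and 1252 CPM in BPTES against 886 and 973 CPM in DMSO, Hhex had 72.0 and 69.2 CPM against 52.6 and 54.2 CPM and Sema3d had 783 and 908 CPM against 681 and 684 CPM, each higher in both BPTES libraries. Lyve1 lay the other way, with 655 and 805 CPM against 986 and 904 CPM. Their adjusted p values with edgeR were 0.301, 0.415, 0.434 and 0.424. Pdpn overlapped, with 246 and 304 CPM against 287 and 251 CPM, and so did Nts, with 87.6 and 25.5 CPM against 449.8 and 63.3 CPM.

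Of 18 tested valve and collecting vessel genes, 5 (27.8%) were below and 2 (11.1%) above, against 21.1% and 20.9% of all genes. The median was 0.03. With 1 library left out at a time, this median ran from -0.090 without DMSO 2 to 0.037 without BPTES 2. Sema3a (chromosome 5, 13124822 to 13603485 in GRCm38.p6) had 565 and 719 CPM in BPTES against 448 and 478 CPM in DMSO, higher in both BPTES libraries, with a log2 fold change of 0.47 ± 0.13 and an adjusted p of 0.346 with edgeR. Celsr1 had 68.7 and 54.1 CPM against 36.4 and 49.6 CPM and was likewise higher, and Gja4, a connexin of arteries and valves, had 21.2 and 15.5 CPM against 38.2 and 24.3 CPM and was lower in both. Foxc2 and Itga9 overlapped, with log2 fold changes of 0.07 and 0.01. After thinning, Gja4 had a UMI in 5.5% and 4.64% of members in BPTES against 7.96% and 7.49% in DMSO, and Cldn11, a tight junction protein, in 3.56% and 1.03% of members in BPTES against 0.442% and 0.441% in DMSO, and neither gene's groups overlapped. Each gave an exact permutation p of 0.333, the smallest that this design allows, and for Cldn11 the unthinned means of 5.78% and 6.14% lay the other way. Gja4 shares were also lower in both BPTES libraries in capillary barcodes (31.4% and 31.5% against 42.6% and 35.5%). The same held in Ptprc-positive barcodes (2.99% and 2.49% against 3.68% and 3.71%). In members the groups overlapped for Foxc2, Itga9, Gata2, Lyve1, Pdpn, Nts and Ackr2. Without thinning, Foxc2 had a UMI in 17.9% and 16.6% of members in BPTES against 9.02% and 9.80% in DMSO, which did not overlap.

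Of 17 tested growth factor signalling genes, 10 (58.8%) were below and 1 (5.88%) above, against 21.1% and 20.9% of all genes, with a median of -0.15. Without the mixed barcodes 7 were below and 2 above, against 22.6% and 19.5% of all genes. The median over all members ran from -0.31 without BPTES 2 to -0.14 without DMSO 1. Flt1 and Nrp1 had log2 fold changes of -2.39 and -1.68 with all members and of -0.18 and -0.80 without those barcodes. Calcrl had 522 and 474 CPM in BPTES against 656 and 656 CPM in DMSO, a log2 fold change of -0.40 that became -0.22. Angpt1, a ligand of TIE2, had 22.5 and 31.7 CPM against 64.3 and 56.5 CPM, with a log2 fold change of -1.17 ± 0.20 that became -1.41 and an adjusted p of 0.138 that became 0.0649 with edgeR. Angpt1 was at 4.56% of its fibroblast level in members, and fibroblast markers summed to 56.9 and 387 CPM in BPTES and 128 and 204 CPM in DMSO members. The part of fibroblast RNA in the difference of Angpt1 was not tested. Kdr, Tie1, Tek and Angpt2 had log2 fold changes between -0.15 and 0.11.

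Of 26 tested leukocyte traffic genes, 7 (26.9%) were below and 3 (11.5%) above, against 21.1% and 20.9% of all genes. The median was -0.10. With 1 library left out at a time, this median ran from -0.36 without BPTES 2 to -0.019 without DMSO 1. Icam1, an adhesion molecule for leukocytes, had 86.3 and 107 CPM in BPTES against 113 and 146 CPM in DMSO, and Cd274, which encodes the checkpoint ligand PD-L1, 15.1 and 8.51 CPM against 19.8 and 23.5 CPM. Both were lower in both BPTES libraries. Stab1, Stab2, Mrc1, S1pr1 and Il7 overlapped, with log2 fold changes between -0.14 and 0.11. Ccl2, a chemokine for monocytes, had 7.14 and 75.0 CPM against 17.3 and 24.3 CPM, high in BPTES 2 alone.

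Of 21 antigen presentation genes, 7 (33.3%) were below and 1 (4.76%) above, against 21.1% and 20.9% of all genes, with a median of -0.22. Without the mixed barcodes 12 were below and 1 above, against 22.6% and 19.5% of all genes, with a median of -0.36. Leaving out single libraries moved the median from -0.31 without DMSO 1 to 0.042 without DMSO 2, so its sign rested on DMSO 2. H2-T23, a non-classical class I gene, had 135 and 122 CPM in BPTES against 161 and 168 CPM in DMSO and was lower in both BPTES libraries, while the class I genes H2-K1 and H2-D1 overlapped, with log2 fold changes of -0.01 and -0.02. The class II gene H2-Aa had 53.3 and 77.3 CPM against 55.1 and 134 CPM and the invariant chain gene Cd74 73.1 and 164 CPM against 68.4 and 204 CPM, high in both replicate 2 libraries, which also held the most alveolar type 2 RNA. The part of that RNA in their levels was not tested. Of the same 21 genes, 12 (57.1%) were below in capillary and 10 (47.6%) in venous endothelium, against 27.8% and 18.0% of all genes there.

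Of 28 tested glutamine metabolism genes, 6 (21.4%) were below and 5 (17.9%) above, close to the shares over all genes, with a median of -0.04. Leaving out single libraries gave medians from -0.010 without BPTES 2 to 0.058 without BPTES 1, on both sides of 0. Slc38a2 had 643 and 684 CPM in BPTES against 512 and 617 CPM in DMSO and Glul 56.6 and 50.6 CPM against 66.9 and 53.1 CPM, with adjusted p values of 0.551 and 0.785 with edgeR. Slc38a4, an amino acid transporter, had 4.94 and 3.48 CPM against 12.9 and 14.8 CPM, and Ctps, which uses glutamine to make CTP, 25.0 and 33.6 CPM against 13.6 and 21.6 CPM. Slc1a5 overlapped, with 3.57 and 13.5 CPM against 6.62 and 9.10 CPM. Of 22 genes of the ATF4 response to amino acid shortage, 3 (13.6%) were below and 7 (31.8%) above, against 21.1% and 20.9% of all genes. The median of 0.05 ran from -0.033 without BPTES 2 to 0.18 without BPTES 1 when single libraries were left out. Atf4 itself had 257 and 258 CPM against 275 and 292 CPM, while its target Ddit4, an inhibitor of mTORC1, had 51.4 and 40.6 CPM against 33.4 and 29.2 CPM and Slc3a2, a subunit of amino acid transporters, 203 and 228 CPM against 171 and 168 CPM.

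Of 19 tested senescence genes, 4 (21.1%) were below and 1 (5.26%) above, against 21.1% and 20.9% of all genes. The median was -0.11. With 1 library left out at a time, this median ran from -0.31 without BPTES 2 to -0.022 without BPTES 1. Cdkn1a (chromosome 17, 29090979 to 29100722 in GRCm38.p6), which encodes the cell cycle inhibitor p21, had 195 and 207 CPM in BPTES against 283 and 309 CPM in DMSO. Both BPTES libraries were lower, with a log2 fold change of -0.56 ± 0.10 and an adjusted p of 0.154 with edgeR and 0.0426 with DESeq2. Without the mixed barcodes the log2 fold change was -0.48 with an adjusted p of 0.120 with edgeR. Cdkn1a had 981 CPM in aerocytes and 377 CPM in capillary endothelium, where its log2 fold change was 0.13. Cdkn2a, which encodes p16, had too few UMIs to be tested, with 0.555 CPM in members. Mki67 and Top2a, markers of dividing cells, had a UMI in 3, 1, 3 and 4 and in 3, 3, 3 and 2 thinned members of BPTES 1, BPTES 2, DMSO 1 and DMSO 2. The mean shares were 0.743% and 1.54% for Mki67 and 1.26% and 1.10% for Top2a in BPTES and DMSO, in opposite order, and Mki67 had a UMI in 2.45% and 2.03% of Ptprc-positive barcodes.

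Of 20 immediate early genes, which respond to stimuli that include tissue digestion, 9 (45%) were below and 0 above, against 21.1% and 20.9% of all genes. The median was -0.15. With 1 library left out at a time, this median ran from -0.25 without DMSO 1 to -0.056 without DMSO 2. Nr4a1, a nuclear receptor, had 65.7 and 40.2 CPM in BPTES against 100.3 and 92.1 CPM in DMSO and Ier3 77.5 and 91.2 CPM against 118 and 143 CPM, lower in both BPTES libraries, while Jun and Junb overlapped. In capillary endothelium 8 of 20 immediate early genes (40%) were below and in venous 14 of 19 (73.7%), against 27.8% and 18.0% of all genes there. The clock list had 5 of 16 below and 2 above with a median of 0.02, and Per2, a repressor of the clock, had 20.3 and 26.7 CPM against 9.56 and 11 CPM. Cell junction genes had 4 of 17 below and 3 above with a median of 0.02, and Cdh5, which encodes VE-cadherin, overlapped, with 502 and 489 CPM against 472 and 503 CPM. Matrix and basement membrane genes had 3 of 30 below and 3 above with a median of 0.01, guidance cues 7 of 25 below and 4 above with a median of -0.11, and lipid uptake and oxidation genes 7 of 21 below and 3 above with a median of -0.13. With single libraries left out, the medians ran from -0.069 without BPTES 2 to 0.024 without BPTES 1 for the clock, from -0.031 without BPTES 1 to 0.049 without BPTES 2 for junctions, from -0.19 without BPTES 2 to 0.13 without BPTES 1 for matrix, from -0.16 without BPTES 2 to 0.0085 without BPTES 1 for guidance and from -0.16 without DMSO 2 to -0.015 without BPTES 1 for lipid genes.

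Whether a change differed from that of blood endothelium was tested with the library as a block. Against capillary endothelium 26 of 15936 genes (0.163%) were called, 25 (0.157%) with a lower and 1 (0.00628%) with a higher log2 fold change in members. The 5 lowest with at least 10 CPM in members were Gm30382, Dach1, Car4, Tmeff2 and Ly6c1, with differences between -3.85 and -2.93. Of the 26 genes, 23 were over 10 times as high in aerocytes as in members, against 469 of all 15936 tested. Car4, a carbonic anhydrase of aerocytes, had 10 and 25 UMIs in BPTES and 116 and 188 in DMSO members. With the mixed barcodes left out, 1 of 15794 genes (0.00633%) was called, and the difference for Gm30382 was 0.67. With all members, leaving out BPTES 1, BPTES 2, DMSO 1 or DMSO 2 gave 136, 154, 84 or 47 calls.

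The gene still called was Fabp4 (chromosome 3, 10204342 to 10208616 in GRCm38.p6), which encodes a fatty acid carrier of endothelium and fat cells. In members it overlapped, with 20.3 and 34.4 CPM against 49.2 and 20.5 CPM. In capillary endothelium it had 14.8 and 18.3 CPM against 138 and 89.1 CPM, lower in both BPTES libraries, with a log2 fold change of -2.78 and an adjusted p of 0.0963 with edgeR. The change in members less that in capillary endothelium was 2.45 ± 0.24 with an adjusted p of 0.0117, and 2.42 with an adjusted p of 0.000860 without the mixed barcodes, both with edgeR. In venous endothelium it had 240.3 and 196 CPM against 49.8 and 174 CPM, higher in both BPTES libraries.

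**Figure D5:**
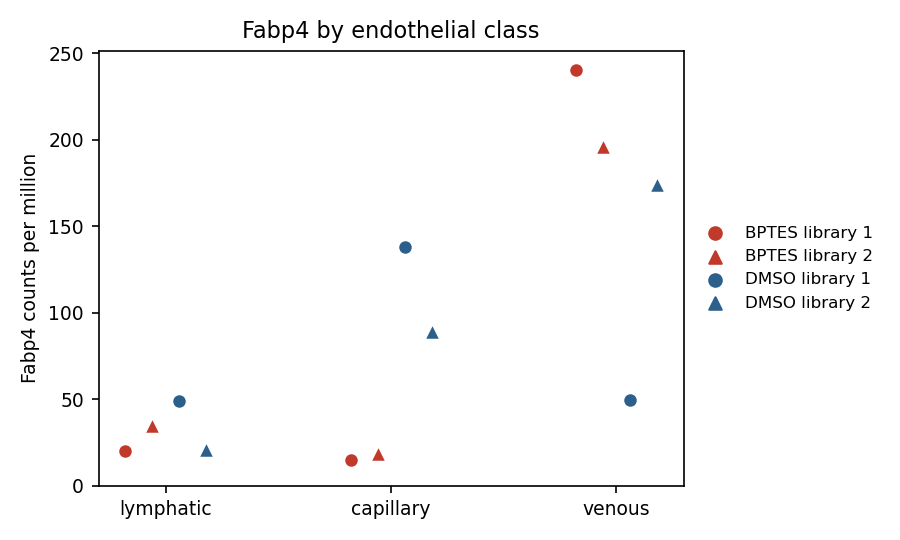
Fabp4 in lymphatic, capillary and venous endothelium, in CPM, with 1 point per library. In capillary endothelium the BPTES libraries lie at 14.8 and 18.3 CPM under the DMSO libraries at 138 and 89.1 CPM, while in lymphatic endothelium the groups overlap between 20.3 and 49.2 CPM.

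Against venous endothelium 6 of 11397 genes (0.0526%) were called, all with a lower log2 fold change in members, namely Csmd1, Dcn, Col1a1, Gm30382, Dach1 and Sparc. Csmd1, a complement regulator, had 137 and 191 CPM in BPTES against 196 and 256 CPM in DMSO in members, where both BPTES libraries were lower, and 49.9 and 70.2 CPM against 1.42 and 2.40 CPM in venous barcodes, where both BPTES libraries were higher. Mean levels of Csmd1 were 336 CPM in fibroblast barcodes, 194 CPM in members and 30.1 CPM in venous barcodes. Dcn and Col1a1 encode matrix proteins of fibroblasts and overlapped in members. Fibroblast markers summed to 368 and 1528 CPM in BPTES and 104 and 95.3 CPM in DMSO venous barcodes, which numbered 59 to 95 per library, and their part in these differences was not tested. With the mixed barcodes left out, 18 of 11203 genes (0.161%) were called, among them Csmd1, Dcn, Col1a1 and Sparc but neither Gm30382 nor Dach1. With all members, leaving out BPTES 1, BPTES 2, DMSO 1 or DMSO 2 gave 42, 88, 51 or 9 calls.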

How the data were processed

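Droplet 3' RNA libraries from 2 BPTES and 2 DMSO lung samples were used. The deposited values are UMI counts per gene and barcode, made with Cell Ranger 8.0.1 per the file headers and with build mm10 per the submitters' processing notes; other settings are not given in the sources used here. Barcodes with at least 500 genes, 1000 UMIs and at most 10% mitochondrial UMIs were kept. Doublets were not removed, and leaving out barcodes with the highest doublet scores was an alternative.

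The counts of all members of a library were added up. The quasi-likelihood test of edgeR 4.0.16 (R 4.3.3) was run on these sums after filterByExpr and TMM scaling, with Benjamini-Hochberg adjustment and a threshold of 0.05. DESeq2 1.42.0 was an alternative. Differences from capillary or venous endothelium were tested as an interaction with the library as a block. Tables were made in Python 3.11.15. Shares of cells with a UMI used barcodes thinned to 3000 UMIs, leaving out shallower ones. The tests were also run on simulated counts. Their spread was set below that of these libraries and the classes were drawn independently, so error rates in these data were not measured.

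The members and the 17 gene lists were chosen with earlier results of these data known. The genes to be named were up to 12 called per direction, called list members, the 15 with the highest ratio to vascular endothelium, members at 10 CPM or more of the identity, valve, growth factor and leukocyte lists, Glul, Slc1a5, Slc38a2, Cdkn1a and Cdkn2a, and up to 5 per direction that differed from capillary or venous endothelium. Other genes were chosen after their values were seen. Some results under this rule are not reported here. Alternatives covered the filter, scaling, test, replicate block, member rule, mitochondrial limit, doublets, denominator, RNA of other cells and each library left out. Those without mixed barcodes were added after seeing the data.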

Additional observations from a re-analysis of the deposited data

Results flagged for a closer look

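The change between BPTES and DMSO differed between lymphatic and capillary endothelium for 26 genes, by edgeR's interaction test at an adjusted p under 0.05. The log2 change in lymphatic less that in capillary endothelium was -3.85 for Gm30382, -3.25 for Dach1, -3.23 for Car4, -3.20 for Tmeff2, -2.93 for Ly6c1 and 2.45 for Fabp4. Of these 26 genes, 23 were over 10 times as high in aerocytes as in members, against 469 of all 15936 tested. Without the mixed barcodes, which were chosen by 6 aerocyte genes that include Car4 and by markers of other cells, Fabp4 was the gene still called, and the differences for Gm30382, Dach1 and Car4 were 0.67, -1.29 and -1.29. Between lymphatic and venous endothelium the change differed for 6 genes, with differences of -5.41 for Csmd1, -4.12 for Dcn, -3.82 for Col1a1, -3.72 for Gm30382 and -3.09 for Dach1. Without the mixed barcodes the last 2 were 0.71 and -1.15 and were not called. Csmd1, Dcn and Col1a1 were each higher in fibroblast barcodes than in members. Fibroblast markers summed to 368 and 1528 CPM in BPTES and 104 and 95.3 CPM in DMSO venous barcodes. The part of fibroblast RNA in these differences was not tested.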

How the results depend on the processing

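In lymphatic endothelium, where 0 genes were called, 359 were called with no filter on low counts, 51 with DESeq2, 145 with members of at least 2 of 5 markers, 2 without probable doublets, 90 without the members richest in RNA of other cells and 104 without members rich in markers of another cell type. The differences from capillary and from venous endothelium, 26 and 6 genes, became 311 and 219 with no filter, 228 and 150 with at least 2 markers, 6 and 16 without probable doublets, 124 and 47 without the members richest in other RNA, 132 and 59 without members rich in other markers, 1 and 3 without members rich in aerocyte genes, and 1 and 18 without both kinds. Leaving out each library in turn gave 0 to 218 genes in members, 47 to 154 against capillary and 9 to 88 against venous endothelium, a difference in member share of -0.187 to 0.835 percentage points, and log2 fold changes of -0.31 to 0.021 for Glul and -1.12 to 0.79 for Slc1a5.

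With the replicate block, 228 genes were called in members, 178 against capillary and 243 against venous endothelium. The replicate numbers share only a number, with 2 pairs and a correlation of deviations of 0.277. Slc1a5 reversed to -0.041 with the replicate block, -1.10 with at least 2 markers, -0.55 without the members richest in other RNA, -0.88 without members rich in other markers and -0.69 without both kinds. Gm30382 reversed to 0.79 against capillary and 0.83 against venous endothelium without members rich in aerocyte genes, and to 0.67 and 0.71 without both kinds. The cause of these changes was not tested. Counts of called genes therefore depended on the members, the filter and single libraries, and 2 libraries per group limit the precision. Of 709 values under the alternatives, of 31 genes, 11 differences from other endothelium and the medians of the 2 interferon lists and the chaperone list, 561 kept their direction and side of the threshold or moved by less than the spread. Another 116 newly passed the threshold, 17 no longer passed it, 3 medians moved by more than the spread and 12 values reversed, in Glul, Slc1a5 or Gm30382. The medians of the other lists are not among these values.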
